A study of Mus musculus with 10 samples.

Results

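Rasa1, Nf1 and Braf are 3 genes of the Ras signalling pathway, and the chromatin peaks that the deposited tables list under these gene symbols were described in 8 CUT&RUN libraries from cultured mouse muscle stem cells (MuSCs). The choice used the gene symbol of each peak and no measured value. It took 19 of the 44925 peaks of H4K20me1, histone H4 monomethylated at lysine 20, and 13 of the 51322 peaks of Pol II S2P, the polymerase that makes messenger RNA when it carries phosphate on serine 2 of the repeats in its tail. Rasa1 had 3 H4K20me1 peaks and 3 Pol II S2P peaks, Nf1 had 11 and 9, and Braf had 5 and 1.

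Both genotypes carried Pax7CreERT, a tamoxifen-inducible Cre recombinase driven from Pax7, a gene of satellite cells, and all mice received tamoxifen as young adults. Ctrl cells (labelled Pax7CreERT/Suv4-20h1WT) had wild-type Kmt5b alleles and sKO cells (labelled Pax7CreERT/Suv4-20h1KO) had floxed Kmt5b alleles, so that Kmt5b was deleted in cells that expressed the Cre. These were purified on magnetic beads and grown in culture, and all mice had a C57BL/6 background. Each antibody was used on 2 Ctrl and 2 sKO libraries, stated to be biological replicates. The design asks how H4K20me1 and elongating polymerase are distributed once Kmt5b, a methyltransferase that adds further methyl groups to H4K20me1, is deleted. The samples were bulk cultures, so a larger share of cells with a mark and more of it per cell could not be told apart.

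Ras proteins are small GTPases that signal while bound to GTP. Exchange factors such as Sos1 load them with GTP, and GTPase-activating proteins speed its hydrolysis and so switch them off. Rasa1 (p120 RasGAP) and Nf1 (neurofibromin, the product of the neurofibromatosis type 1 gene) are both GTPase-activating proteins, and Braf is a kinase that active Ras recruits at the top of the RAF, MEK and ERK cascade, which growth factors use to drive the proliferation of MuSCs. H4K20me1 is known to lie in broad domains over gene bodies, and the serine 2 phosphorylated form of the polymerase is the elongating one, which accumulates towards the 3′ ends of genes.

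The values are scores, whole numbers for coverage normalised to a Drosophila spike-in and not divided by peak length. Their sums over all peaks were 15218720 and 20432644 in the Ctrl H4K20me1 libraries and 32194136 and 35046570 in the sKO libraries, against 3257665 to 4885638 in the Pol II S2P libraries, where the genotypes overlapped. The targeted gene was not a check of the labels in these assays: Kmt5b scored 1332 and 1740 in Ctrl against 1934 and 2196 in sKO for H4K20me1, and 24 and 62 against 48 and 22 for Pol II S2P, over whole peaks. Of 8 MuSC markers, 6 had a Pol II S2P peak, with summed scores of 5230 and 5873 in Ctrl against 6292 and 4220 in sKO, while Myf5 and Cdh15 had none. The fibro-adipogenic markers Pdgfra, Ly6a and Dcn had no Pol II S2P peak, 1 of 3 endothelial markers had one (Pecam1, summed 82 to 147) and 1 of 3 blood markers had one (Cd68, 840 to 1308).

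The starts of the 3 genes differed in whether elongating polymerase was listed there. The 200 bases before the earliest annotated start of each gene are shown because the Nf1 stretch lay inside a Pol II S2P peak listed with Nf1, the Rasa1 stretch inside a peak listed with no gene, and the Braf stretch in no peak. They come from RefSeq's GRCm38 assembly, the build of the files, at chr13:85289487-85289686 (minus strand) for Rasa1, chr11:79339493-79339692 (plus strand) for Nf1 and chr6:39725464-39725663 (minus strand) for Braf. Capitals mark matches on either strand to the cyclic AMP response element TGACGTCA, the GC box GGGCGG or the ETS core CCGGAA.
Rasa1: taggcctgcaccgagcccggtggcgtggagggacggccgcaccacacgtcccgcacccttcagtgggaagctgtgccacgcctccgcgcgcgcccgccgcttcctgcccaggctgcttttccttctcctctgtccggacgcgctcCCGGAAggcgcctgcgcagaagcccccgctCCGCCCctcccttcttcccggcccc
Nf1: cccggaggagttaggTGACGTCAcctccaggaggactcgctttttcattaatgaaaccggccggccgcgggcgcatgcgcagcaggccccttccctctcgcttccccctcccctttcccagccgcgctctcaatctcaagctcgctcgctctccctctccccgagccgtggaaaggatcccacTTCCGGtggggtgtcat
Braf: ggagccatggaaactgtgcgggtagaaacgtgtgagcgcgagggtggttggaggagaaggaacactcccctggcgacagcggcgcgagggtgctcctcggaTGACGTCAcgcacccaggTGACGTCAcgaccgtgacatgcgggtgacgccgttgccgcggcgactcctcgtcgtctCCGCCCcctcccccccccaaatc

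All 3 stretches were rich in G and C, at 73.5% for Rasa1, 64.0% for Nf1 and 67.0% for Braf, against a median of 53.0% over 32505 RefSeq promoter stretches of the same length. They held 23, 17 and 23 CpG dinucleotides, against a median of 5. Braf had 2 matches to the cyclic AMP response element and Nf1 had 1, and 1.48% of all promoter stretches held at least 1. The GC box was found in Rasa1 and Braf and in 31.3% of all stretches, the ETS core in Rasa1 and Nf1 and in 10.8%. Neither the TATA box TATAAA (9.88% of all stretches) nor the CCAAT box CCAAT (29.3%) was found in any of the 3. These matches describe letters in a window and were not tested as binding sites.

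H4K20me1 was higher in sKO than in Ctrl over all 3 genes, and over the listed peaks the rise was smallest in Rasa1 and largest in Braf. Summed over its 3 peaks, Rasa1 (ENSMUSG00000021549, chr13:85214780-85289130, minus strand) scored 1007 and 1327 in Ctrl against 1571 and 1778 in sKO. Nf1 (ENSMUSG00000020716, chr11:79339693-79581612, plus strand) scored 4750 and 6356 in Ctrl against 9494 and 10660 in sKO. Braf (ENSMUSG00000002413, chr6:39603237-39725463, minus strand) scored 3029 and 4029 in Ctrl against 6926 and 7375 in sKO. In each gene the lower sKO library exceeded the higher Ctrl one, which held for 96.5% of the 13750 genes tested.

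The log2 fold changes of sKO over Ctrl, on log2(score + 1), were 0.53 ± 0.27 for Rasa1, 0.87 ± 0.29 for Nf1 and 1.03 ± 0.29 for Braf (SE, n = 2 each). The limma adjusted p was 0.0552 for Rasa1, 0.00373 for Nf1 and 0.000552 for Braf. With a call set at an adjusted p under 0.1 and a log2 change over 0.5, all 3 genes were called higher, as were 92.3% of the genes tested, so the calls set the members apart from nothing. The median change over all tested genes was 1.11, and 7.88% of genes changed less than Rasa1, 28.5% less than Nf1 and 42.7% less than Braf.

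Over the listed peaks, the order of the members did not depend on the scale between libraries, as it can be read within each library. It did depend on the peaks counted. With all peaks on the Rasa1 span, including a peak that reaches beyond the gene, the change was 0.83, close to the 0.87 of Nf1. The Braf sum includes its 3′ peak (1.27), which runs past the end of the gene. The other Braf peaks changed by 0.69 to 1.08, and the order without the 3′ peak was not tested. The log2 ratio of Braf to Rasa1 was 1.59 and 1.60 in Ctrl against 2.14 and 2.05 in sKO. That of Nf1 to Rasa1 was 2.24 and 2.26 in Ctrl against 2.60 and 2.58 in sKO. Both ratios were higher in both sKO libraries, by 0.50 and 0.34 on average, more than the replicates of either genotype differed. The ratio of Braf to Nf1 moved less, from -0.65 and -0.66 to -0.45 and -0.53. An exact two-sided permutation test gave p = 0.333 for each of these 3 ratios, the smallest value that 2 against 2 libraries allow, and 0.4 after adjustment over 6 ratios.

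As a share of the library total, Rasa1 held 0.662 and 0.649 of every 10000 score units in Ctrl against 0.488 and 0.507 in sKO, so its share was lower in both sKO libraries. The share of Nf1 was 3.12 and 3.11 in Ctrl against 2.95 and 3.04 in sKO, and that of Braf was 1.99 and 1.97 against 2.15 and 2.10 (exact permutation p = 0.333 for each, 0.5 adjusted over 6 shares). With every library scaled to the same total, Rasa1 had a log2 change of -0.40 (limma adjusted p = 6.45e-05), Nf1 of -0.06 (0.274) and Braf of 0.10 (0.0793). None of these passed the fold limit, while 24.1% of all genes were then called higher and 4.31% lower, around a median of 0.18. The direction of the change in Rasa1 and Nf1 thus turned with the scaling. No Rasa1, Nf1 or Braf call was kept when either sKO library was left out. Fewer of all tested genes were then called as well, though not all calls were lost, as they were in the members. The changes were then 0.44 and 0.62 for Rasa1, 0.79 and 0.96 for Nf1 and 0.99 and 1.08 for Braf. Rasa1 also missed the fold limit without the first Ctrl library, at 0.33.

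**Figure D1:**
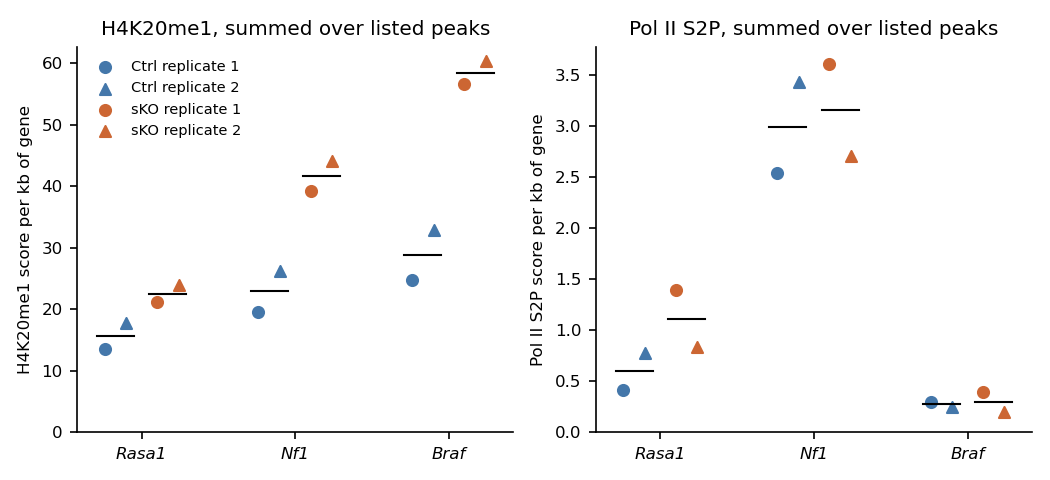
Scores of Rasa1, Nf1 and Braf per kb of annotated gene in each library, for H4K20me1 (left) and Pol II S2P (right), with points for libraries and short lines for group means. The 2 sKO libraries sit above the 2 Ctrl libraries in all 3 genes for H4K20me1, and the groups overlap in Nf1 and Braf for Pol II S2P.

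Summed over listed peaks and per kb of annotated gene, Braf carried the most H4K20me1 and Rasa1 the least in all 4 libraries. Braf had 24.8 and 33.0 score units per kb in Ctrl against 56.7 and 60.3 in sKO. Nf1 had 19.6 and 26.3 in Ctrl against 39.2 and 44.1 in sKO, and Rasa1 had 13.5 and 17.8 against 21.1 and 23.9. In Ctrl, the 3 values of one library did not tie, but Braf in the lower Ctrl library was below Nf1 in the higher one, so that the spread between libraries was as large as the step from Nf1 to Braf. In sKO, the ranges of the 3 genes were separate. The Ctrl means stood at the 39.9th percentile of tested genes for Rasa1, the 53.3rd for Nf1 and the 62.2nd for Braf.

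The order followed how much of each gene the listed peaks covered. They covered 40.1% of the Rasa1 span, 79.9% of the Nf1 span and 95.9% of the Braf span. Per kb of peak the order was not kept. The Ctrl means were then 35.5 to 41.5 in Rasa1, 13.3 to 36.3 in Nf1 and 24.6 to 32.5 in Braf. All 3 genes were free of a listed H4K20me1 peak at the start itself: the first peak began 5.73 kb into Rasa1, 3.31 kb into Nf1 and 0.464 kb into Braf. In Rasa1 the listed peaks ended 37.5 kb from the start, and a broad peak listed with Ccnh (cyclin H), the convergent neighbour whose 3′ end overlaps that of Rasa1, covered another 29.1% of the span. That peak (chr13:85191600-85236399) scored 1164 and 1403 in Ctrl against 2672 and 2663 in sKO, a log2 change of 1.06 ± 0.27 (SE, limma adjusted p = 0.000238). All peaks on the Rasa1 span, this one included, summed to 2171 and 2730 in Ctrl against 4243 and 4441 in sKO. That was a log2 change of 0.83 ± 0.28 (limma adjusted p = 0.00414). The Ccnh peak was counted whole, though 21.6 kb of its 44.8 kb lie on Rasa1, so the sum holds signal from outside the gene. The smaller rise was thus that of the first part of Rasa1, and the peak shared with Ccnh stood near the median change of all genes.

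**Figure D2:**
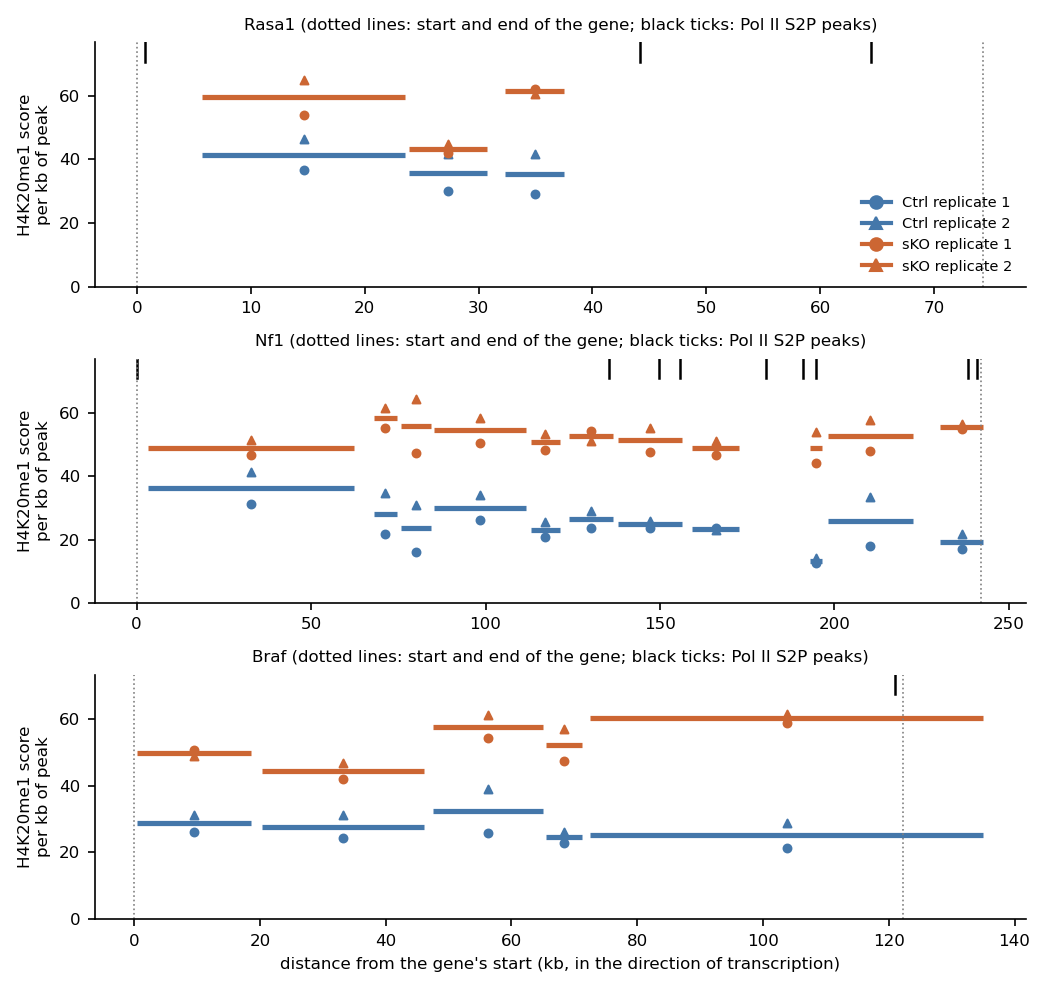
H4K20me1 score per kb of peak along Rasa1, Nf1 and Braf, against the distance from the start of the gene in kb. Bars are group means over the width of each peak, points are libraries, dotted lines mark the ends of the gene and black ticks mark listed Pol II S2P peaks. In Nf1 the Ctrl bars run from 13.3 to 36.3 and the sKO bars from 48.9 to 58.4.

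Within Nf1, the rise was smallest in the first peak and larger behind it. The first peak, 59 kb long (chr11:79343000-79401999, introns 1 to 5 and exons 2 to 5 of 58), scored 1848 and 2437 in Ctrl against 2757 and 3037 in sKO. Its log2 change was 0.45 ± 0.28 (SE, limma adjusted p = 0.119), and it was the one Nf1 peak not called. The other 10 peaks changed by 0.87 to 1.85 and all were called higher. The largest change belonged to the shortest peak, 3.6 kb around exon 37 (chr11:79532600-79536199), which scored 45 and 51 in Ctrl against 159 and 194 in sKO (1.85 ± 0.45, limma adjusted p = 0.000125). The last peak, over the 3′ end (chr11:79570000-79582399), scored 211 and 269 in Ctrl against 682 and 700 in sKO (1.53 ± 0.29).

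The first Nf1 peak held 38.9% and 38.3% of the gene's H4K20me1 score in Ctrl against 29.0% and 28.5% in sKO, a measure that the scale between libraries cannot move and that was chosen after the values were seen. The replicates differed by less than 1 percentage point and the share fell by 9.86 points (exact permutation p = 0.333, the smallest possible; 0.4 adjusted over 6 shares). Among 3235 tested genes with at least 3 H4K20me1 peaks, the peak nearest to the start lost share in both sKO libraries in 27.2%, and 2.19% of genes lost more share than Nf1. Per kb of peak, the Ctrl means over Nf1 ran from 13.3 to 36.3 and the sKO means from 48.9 to 58.4. The coefficient of variation over the 11 peaks was 24.6% and 26.3% in Ctrl against 7.66% and 7.84% in sKO. A lower variation in both sKO libraries was found in 51.1% of the 3235 genes, so the flatter profile was common. Rasa1 did not share it, with 12.6% and 6.39% in Ctrl against 19.4% and 18.5% in sKO, and Braf overlapped at 8.16% and 15.4% against 12.6% and 12.5%.

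Braf gained most at its 3′ end. The peak there, 62.6 kb long (chr6:39590400-39652999, exons 9 to 22 of 22), scored 1341 and 1814 in Ctrl against 3684 and 3864 in sKO, a log2 change of 1.27 ± 0.28 (SE, limma adjusted p = 1.88e-05), which lost its call without the second sKO library (1.24, limma adjusted p = 0.111). It runs past the end of Braf over the convergent Ndufb2, which encodes a subunit of respiratory complex I and has no H4K20me1 peak listed under its own name, and over part of Gm42420 behind it, so its score could not be assigned to a single gene. It held 44.3% and 45.0% of the Braf score in Ctrl against 53.2% and 52.4% in sKO. The farthest peak gained share in both sKO libraries in 33.5% of the 3235 genes, and 96.8% of them gained less than Braf. The first Braf peak (chr6:39706800-39724999, in intron 1) scored 476 and 569 in Ctrl against 926 and 890 in sKO (0.80 ± 0.27). The 3 peaks between scored 133 to 804 in Ctrl against 276 to 1212 in sKO and changed by 0.69 to 1.08, and all 5 Braf peaks were called.

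The 3 Rasa1 peaks lie behind one another in the first part of the gene. The peak nearest to the start (chr13:85265600-85283399, in intron 1) scored 651 and 827 in Ctrl against 962 and 1157 in sKO, a change of 0.52 ± 0.27 (SE, limma adjusted p = 0.0596). The middle peak (chr13:85258400-85265199, around exon 2 of 25) scored 204 and 283 in Ctrl against 285 and 306 in sKO. Its groups were nearly joined, and its change of 0.30 ± 0.31 was not called (limma adjusted p = 0.346). The third peak (chr13:85251600-85256799, exons 3 to 5) scored 152 and 217 in Ctrl against 324 and 315 in sKO, a change of 0.81 ± 0.31 (limma adjusted p = 0.0128). The first peak kept its share of the Rasa1 score, at 64.6% and 62.3% in Ctrl against 61.2% and 65.1% in sKO.

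Over the 3 genes, 17 of the 19 H4K20me1 peaks were called higher and 2 were not, against 90.0% of the 41008 peaks tested. The groups were separate, with sKO above, in all 19, as in 93.8% of tested peaks. The median change of the 19 was 1.05, beside 1.14 over all tested peaks. On equal totals 2 of the 19 were called higher, the ninth and the last Nf1 peak (0.93 and 0.61), and 1 lower, the middle Rasa1 peak (-0.63), while 25.9% of all peaks were called higher and 3.32% lower. Without the first sKO library 10 of the 19 peaks were called higher by limma (57.1% of all peaks), and without the second 2 were (43.6%), the ninth and the last Nf1 peak. Without the first Ctrl library fewer of the 19 were called and without the second more, as among all tested peaks. The median change of all tested peaks was then 0.93 and 1.37.

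**Figure D3:**
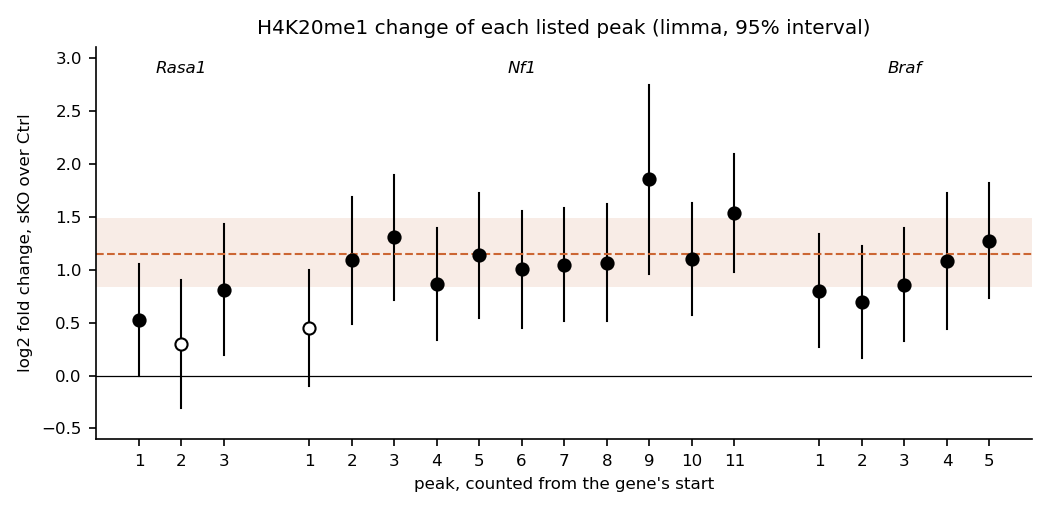
Log2 fold change of H4K20me1, sKO over Ctrl, for each of the 19 peaks in order from the start of its gene, with 95% intervals from limma; filled points were called. The dashed line is the median of all tested peaks (1.14) and the band spans their quartiles; the first Nf1 peak, all 3 Rasa1 peaks and the first 2 Braf peaks lie under the band.

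Elongating polymerase was sparse on these genes, and in Nf1 and Braf its change was small against the spread between replicates. Summed by gene, Nf1 scored 616 and 832 in Ctrl against 873 and 656 in sKO, and the groups overlapped. Its log2 change was 0.08 (95% interval -0.76 to 0.92, limma adjusted p = 1). Rasa1 scored 31 and 58 in Ctrl against 104 and 62 in sKO, with both sKO libraries above both Ctrl libraries, as in 9.41% of the 8531 genes tested. Its change of 0.90 ± 0.50 (SE, 95% interval -0.08 to 1.89, limma adjusted p = 1) was larger than that of 99.2% of tested genes but rested on low scores, and was 0.46 without the first Ctrl library and 0.54 without the first sKO library. Braf, with 36 and 31 in Ctrl against 48 and 24 in sKO, had a mean of 34.8 and was not tested, since a mean over 50 was required. Of all tested genes 0% were called higher by limma, and at an unadjusted p under 0.05 there were 95 higher and 5 lower.

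Per kb of gene, the order of the members differed from that of H4K20me1. Nf1 had the most Pol II S2P in every library, at 2.55 and 3.44 score units per kb in Ctrl against 3.61 and 2.71 in sKO. Rasa1 had 0.417 and 0.780 in Ctrl against 1.40 and 0.834 in sKO, and Braf had the least, at 0.295 and 0.254 against 0.393 and 0.196. The ranges of the 3 genes did not overlap over the 4 libraries. The Ctrl level of Rasa1 exceeded that of 4.88% of tested genes and that of Nf1 27.9%.

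Nf1 had 1 Pol II S2P peak at its start and 8 in its second part. The start peak (chr11:79339246-79339881), which covers the printed Nf1 promoter stretch, scored 92 and 119 in Ctrl against 79 and 95 in sKO (log2 change -0.27 ± 0.43, SE). No further peak was listed for 135 kb, 55.9% of the gene, which is the part under the first Nf1 H4K20me1 peaks. The next 2 peaks, at 135 and 150 kb, were weak, with 7 to 24 score units in the 4 libraries. The peak at 156 kb scored 78 and 95 in Ctrl against 173 and 73 in sKO, with 1 sKO library high and the other just under Ctrl.

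**Figure D4:**
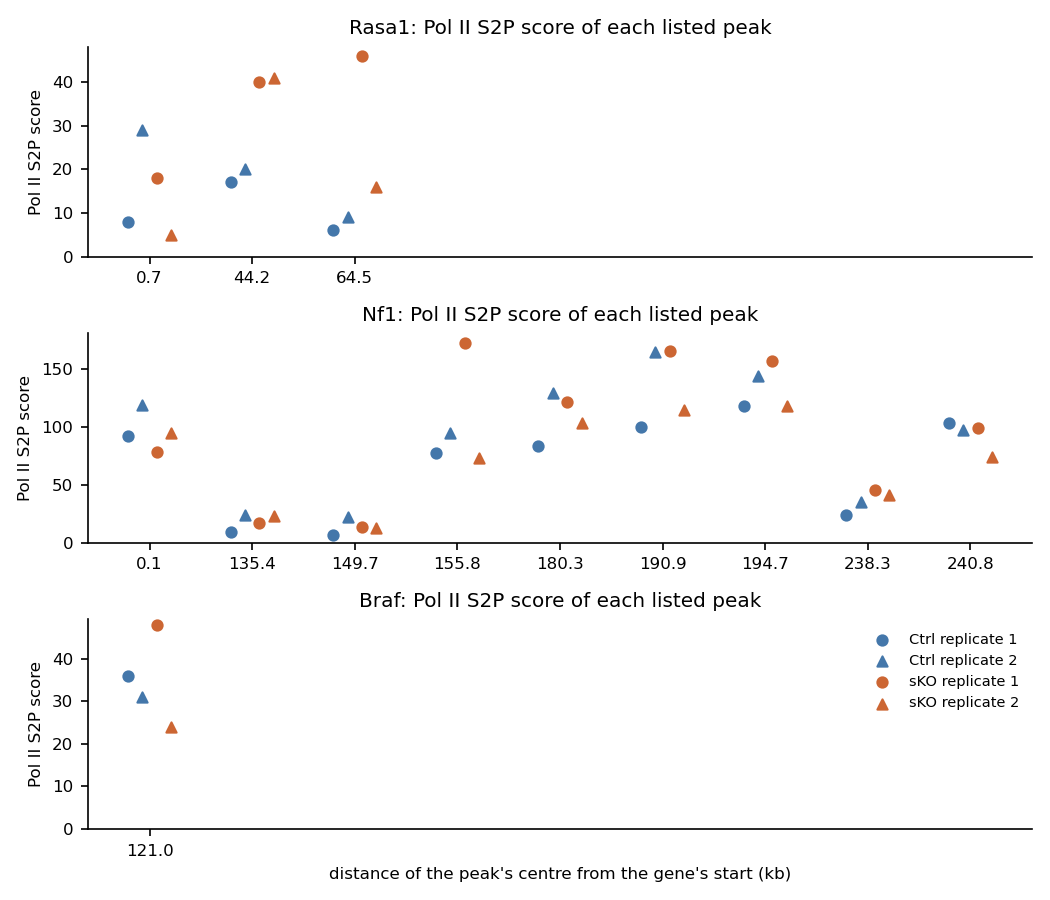
Pol II S2P score of each peak listed with Rasa1, Nf1 and Braf in the 4 libraries, labelled by the distance of its centre from the start of the gene in kb. In Rasa1 the peaks at 44.2 and 64.5 kb are higher in both sKO libraries than in both Ctrl libraries, and the Ctrl and sKO points of Nf1 overlap at all but the peak at 238 kb.

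Part of the Nf1 signal lay over small genes nested in its large intron 36 on the opposite strand. They are Omg, a myelin glycoprotein gene, and Evi2, Evi2b and Evi2a, named for an ecotropic viral integration site. None had a peak listed under its own name for either antibody. The H4K20me1 peak over Omg and the 2 Pol II S2P peaks over the Evi2 genes were listed with Nf1. No listed H4K20me1 peak lay over the Evi2 genes and no listed Pol II S2P peak over Omg. The peak at 180 kb, on Evi2b, scored 84 and 130 in Ctrl against 122 and 104 in sKO. The peak at 191 kb, over the start of Evi2a, scored 100 and 165 in Ctrl against 166 and 115 in sKO. These 2 peaks held 29.9% and 35.5% of the Nf1 Pol II S2P score in Ctrl against 33.0% and 33.4% in sKO. CUT&RUN does not mark the strand, so signal from Nf1 and from the nested genes could not be told apart. The last 2 peaks lie at the 3′ end of Nf1, and the final one (chr11:79580112-79580949, in exon 58) scored 104 and 98 in Ctrl against 99 and 74 in sKO.

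In Rasa1, the 2 intronic Pol II S2P peaks were higher in sKO and the one at the start was not. The peak 0.720 kb from the start scored 8 and 29 in Ctrl against 18 and 5 in sKO. The peak at 44.2 kb (chr13:85244873-85245073, intron 7) scored 17 and 20 in Ctrl against 40 and 41 in sKO, a log2 change of 1.09 ± 0.61 (SE). The peak at 64.5 kb (chr13:85224561-85224782, intron 18) scored 6 and 9 in Ctrl against 46 and 16 in sKO, a change of 1.76 ± 0.95 with 1 sKO library well above the other. Neither passed the test (limma adjusted p = 1 for both), and 0.00592% of the 50643 tested peaks were called higher. The sKO values stood above the Ctrl values without overlap in 3 of the members' 13 peaks, these 2 and the Nf1 peak at 238 kb (24 and 35 against 46 and 41), and in 15.6% of all tested peaks.

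The sequences of these 2 Rasa1 peaks are printed because they carried the higher Pol II S2P score. They are given on the strand of Rasa1, with matches to the E-box CANNTG, the motif of myogenic helix-loop-helix factors such as Myod1, in capitals. Such a match was present in 58.2% of the 32505 promoter stretches of 200 bases and is common by its length. The peaks were poor in G and C, at 32.8% and 36.9%, and held 1 CpG each.
Rasa1, 44.2 kb: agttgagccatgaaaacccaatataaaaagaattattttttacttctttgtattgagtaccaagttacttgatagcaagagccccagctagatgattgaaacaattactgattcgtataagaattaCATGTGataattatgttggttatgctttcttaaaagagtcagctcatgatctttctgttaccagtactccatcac
Rasa1, 64.5 kb: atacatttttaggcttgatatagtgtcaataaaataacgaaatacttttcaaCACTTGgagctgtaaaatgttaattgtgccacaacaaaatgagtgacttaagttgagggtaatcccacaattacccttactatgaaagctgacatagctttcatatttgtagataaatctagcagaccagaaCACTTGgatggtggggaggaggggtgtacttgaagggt

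The Rasa1 span and the promoter before it held further Pol II S2P signal that was not listed with Rasa1. A peak over its promoter (chr13:85289146-85289762), which covers the printed Rasa1 stretch and begins 16 bases before the start in the annotation of the files, was listed with no gene. It scored 63 and 94 in Ctrl against 100 and 75 in sKO, more than any listed Rasa1 peak (0.17 ± 0.44, limma adjusted p = 1). RefSeq places the start of Rasa1 356 bases further upstream, inside that peak. Another 4 small peaks in the last part of Rasa1 were listed with Ccnh. Both sKO libraries were above both Ctrl libraries in all but the peak nearest to the Rasa1 start, and in 15.6% of all tested peaks. Together the 4 small peaks scored 56 and 80 in Ctrl against 123 and 101 in sKO. With these 4 but without the promoter peak, Rasa1 scored 87 and 138 against 227 and 163, a log2 change of 0.81 ± 0.41 (limma adjusted p = 1). Ccnh, which is transcribed towards Rasa1, had 11 peaks with 574 and 731 in Ctrl against 1276 and 980 in sKO (0.79 ± 0.43, limma adjusted p = 1). What part of the Rasa1 signal belonged to Ccnh was not tested.

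Braf had a single Pol II S2P peak, in its last exon 121 kb from the start (chr6:39604274-39604587), with 36 and 31 in Ctrl against 48 and 24 in sKO. Its log2 change was 0.02 (95% interval -1.06 to 1.11). No peak was listed over the Braf start. Ndufb2, whose 3′ end overlaps that of Braf, had 2 peaks with 23 and 75 in Ctrl against 53 and 58 in sKO, and Gm42420 on the same side had 1 peak with 143 and 219 against 202 and 164. On the other side, Mrps33, a mitochondrial ribosomal protein gene, had no Pol II S2P peak.

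Some Pol II S2P peaks of the members overlapped H4K20me1 peaks, but none did at a start. Of the 9 Nf1 Pol II S2P peaks, 6 overlapped an Nf1 H4K20me1 peak, and the start peak and the 2 over the nested genes did not. The single Braf peak overlapped the Braf 3′ H4K20me1 peak. Listed H4K20me1 peaks covered 79.9% of the Nf1 span and 95.9% of the Braf span, so overlap is common by coverage. Whether it exceeded that coverage was not tested. Of the 3 Rasa1 peaks, the one at 64.5 kb lay in the H4K20me1 peak listed with Ccnh and the other 2 lay in none.

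The neighbouring genes also had more H4K20me1 in sKO. Rab11fip4, a Rab11 effector gene 9.60 kb behind Nf1, scored 2349 and 3153 in Ctrl against 5359 and 5759 in sKO (log2 change 1.03 ± 0.28, limma adjusted p = 0.000506). Mrps33, 76.3 kb before Braf, scored 254 and 310 against 478 and 628 (0.96 ± 0.28). Around Rasa1 the next genes lie far off: Cox7c, a cytochrome c oxidase subunit gene at 756 kb, changed by 1.29 ± 0.29, and Tmem161b at 919 kb by 0.51 ± 0.27 (limma adjusted p = 0.0633). Gm9964, the gene before Nf1, and Gm42420 had no H4K20me1 peak listed under their own names, and the pseudogenes Gm11198 and Gm11199 and the antisense gene AU040972 inside Nf1 and the pseudogene Fth-ps2 inside Braf had no peak of either antibody listed under theirs.

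Across a list of 47 genes of the Ras pathway, 39 were tested for H4K20me1, 34 (87.2%) were called higher and none lower, beside 92.3% called higher over all genes, with a median change of 1.01 beside 1.11 over all genes. The 10 GTPase-activating proteins were all called, and Rasa1 changed least among them. Of the Ras GTPases 3 of 4 tested were called, of the exchange factors 7 of 7, of the adaptors and phosphatase 3 of 4, of the negative regulators 5 of 6, of the RAF kinases and scaffolds 3 of 4, and of the MEK and ERK kinases 3 of 4. The smallest change was in Ptpn11, the phosphatase Shp2, with 2889 and 3985 in Ctrl against 3535 and 3650 in sKO (0.08). The largest changes were in Mapk3, the kinase ERK1, with 54 and 69 in Ctrl against 345 and 272 in sKO (2.31), and in the ERK phosphatase gene Dusp6 with 91 and 85 against 364 and 398 (2.10). On equal totals 5 of the 39 were called higher and 4 lower, Ptpn11 among them, while 24.1% of all genes were called higher and 4.31% lower.

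**Figure D5:**
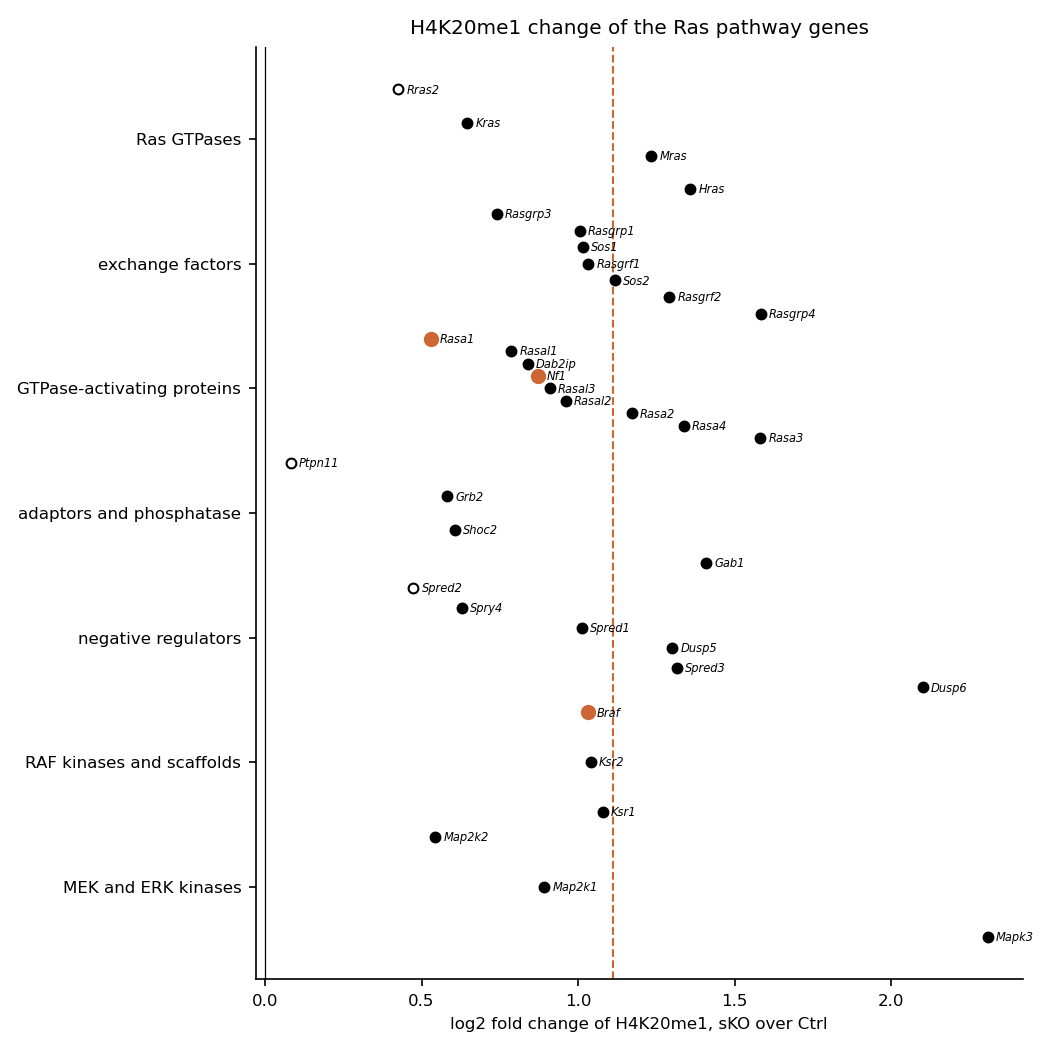
Log2 fold change of H4K20me1, sKO over Ctrl, of 36 of the 39 tested Ras pathway genes by role; filled points were called higher and Rasa1, Nf1 and Braf are coloured. The dashed line is the median of all tested genes (1.11); Rasa1 stands leftmost among the GTPase-activating proteins, and Mapk3 rightmost of all.

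For Pol II S2P, 38 of the 47 genes had a peak, 25 were tested and none was called by limma, with 1 (Ksr2) at an unadjusted p under 0.05. The median change of the 25 was 0.11, beside 0.09 over all genes tested. The 3 highest changes were in the scaffold gene Ksr2 (33 and 45 in Ctrl, 90 and 73 in sKO, 1.05 ± 0.51), in Rasa1 (0.90) and in Nras (124 and 171 against 271 and 194, 0.65 ± 0.41). The 3 lowest were in Spry2, an inhibitor of receptor signalling (125 and 153 against 104 and 113, -0.35 ± 0.41), in Ksr1 (-0.16) and in Spred2 (-0.08). In the 25 genes both sKO libraries were above both Ctrl libraries in 4 and below in 1, beside 9.41% above and 4.52% below over the 8531 genes tested.

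By their pattern over the 8 libraries, the members were not alike. Likeness was the Euclidean distance between log2(score + 1) profiles, centred within each antibody, over 5850 genes, which were those tested for both antibodies and Braf. The nearest genes to Rasa1 were Erfl (0.149), Txnl4a (0.156) and Wnt4 (0.206), those to Nf1 were Elp4 (0.0678), Plxna2 (0.0770) and Ptprg (0.0818), and those to Braf were Cfap99 (0.163), C530008M17Rik (0.164) and Pign (0.183). Nf1 was 0.975 from Rasa1 and 0.628 from Braf, and Rasa1 was 1.29 from Braf. The median distance of all genes was 0.574 from Nf1, 0.812 from Braf and 1.17 from Rasa1. Among the 5850 genes, Nf1 ranked 1570th in nearness to Rasa1 and 1218th to Braf, nearer than the median gene. In nearness to Nf1, Rasa1 ranked 4983rd and Braf 3302nd, farther than the median gene. Rasa1 ranked 5422nd to Braf and Braf 3731st to Rasa1, also farther.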

How the data were processed

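CUT&RUN data from 8 libraries were analysed, 2 Ctrl and 2 sKO for each antibody; 2 IgG libraries were not analysed here. Per the labels and the study's methods, the authors trimmed reads with Trimmomatic 0.39, aligned them to mm10 (GRCm38) with STAR 2.7.3a, kept unique alignments, removed duplicates with Picard 2.21.7, normalised coverage by Drosophila S2 spike-in DNA, unified peaks over libraries and listed each with a gene. SICER 0.0.41 and MACS2 2.1.1 are named in the submitters' processing notes. The deposited values are a score per peak and library, whole numbers that were not treated as read counts, so the count model stated in the methods was not used. The deposited fraction of a peak in its gene was used for 1 alternative only. The number of reads behind a score is unknown, so no counting interval could be given.

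Scores were summed by gene identifier over autosomal peaks, and log2(score + 1) was fitted by genotype with limma 3.58.1 (trended variance) on all genes with a mean over 50 or all peaks with a mean over 10. Calls were made at a Benjamini-Hochberg adjusted p below 0.1 together with a log2 change over 0.5. The procedure was tested on simulated data with a small set of changed features and no shift between libraries. That setting differs from the H4K20me1 data, where most genes rose, so it cannot check calls made under such a shift. Shares and ratios were compared by exact permutation. Gene positions come from GENCODE vM21, sequences from RefSeq GRCm38.p6. Alternatives changed the scaling, pseudocount, filter, variance model, replicate block, libraries and peaks counted. Named genes were the 3 members, the genes overlapping or next to them, the 3 highest and 3 lowest of the pathway list for each antibody, and the 3 nearest patterns; Kmt5b, Ccnh and other genes of the list were named where a value turned on them. Some genes that this rule names are not reported here. The members and lists were chosen with earlier results of these data known.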

Additional observations from a re-analysis of the deposited data

How the results depend on the processing

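The scale between libraries decided the H4K20me1 results, and the cause of the difference between scalings was not tested. On the deposited scale 12690 genes and 36899 peaks were called in either direction. With equal totals these were 3900 genes (3308 higher, 592 lower) and 11979 peaks, after quantile normalisation 2862 (1376 higher, 1486 lower) and 9271, and after centring on the median 3506 (1704 higher, 1802 lower) and 10601. For Pol II S2P, 0 genes and 4 peaks were called on the deposited scale, 181 genes and 959 peaks with equal totals, 141 and 248 after quantile normalisation and 197 and 797 after centring. In the same order of scalings, the H4K20me1 change of Rasa1 was -0.40, -0.50 and -0.63, that of Nf1 -0.057, 0.033 and -0.29, and that of Braf 0.10, 0.19 and -0.13. The H4K20me1 peaks described one by one that turned negative were the first Braf peak with -0.13, -0.27 and -0.42, the first Nf1 peak with -0.48, -0.34 and -0.78, and the Rasa1 peaks, from the start, with -0.41, -0.48 and -0.70, -0.63, -0.91 and -0.93, and -0.11, -0.42 and -0.41. Those that stayed positive were the last Braf peak with 0.34, 0.46 and 0.049 (no call under any of the 3), the ninth Nf1 peak with 0.93, 0.48 and 0.63 and the last with 0.61, 0.36 and 0.31 (of these scalings, both were called with equal totals alone). For Pol II S2P, Nf1 had -0.060, -0.041 and -0.0095 and the Braf peak -0.11, -0.15 and -0.16. Of all 19 H4K20me1 peaks, 8 turned negative with equal totals, 14 after quantile normalisation and 15 after centring. The median change of all 41008 tested peaks was then 0.22, -0.0069 and -0.081. Negative changes were thus common among all peaks after quantile normalisation and centring. With equal totals the median was positive and the lower quartile -0.094, so negative changes were a minority of all peaks there.

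Leaving out 1 library at a time gave 5249 to 13376 H4K20me1 genes and 17862 to 39967 peaks called, and 0 to 2 Pol II S2P genes and 0 to 40 peaks. The H4K20me1 change ran from 0.33 to 0.73 for Rasa1, from 0.66 to 1.08 for Nf1 and from 0.83 to 1.24 for Braf. The Pol II S2P change ran from 0.46 to 1.35 for Rasa1, from -0.14 to 0.30 for Nf1 and from -0.46 to 0.51 for the Braf peak. The lone library left in a group was assumed to vary like the other group. The loss of share in the first Nf1 peak, from -10.1 to -9.58 percentage points, was recomputed this way after the values were seen.

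Without a variance trend limma called 6 Pol II S2P genes and 59 peaks, the first Rasa1 H4K20me1 peak lost its call (adjusted p = 0.119), and without the filter 1 gene. With autosomal peaks listed with a gene as the total, the change in share per 10000 was -0.21 for Rasa1 (from -0.16), -0.24 for Nf1 (from -0.12) and 0.12 for Braf (from 0.15) in H4K20me1, and 0.11 for Rasa1 (from 0.081) in Pol II S2P. With all peaks over the gene span, each counted whole, the H4K20me1 change of Rasa1 was 0.83 in place of 0.53. Pseudocounts of 0.5 and 10, peaks at least 50% inside the gene and all peaks over the gene span changed no call of the members. Replicate numbers are shared by the labels but nothing ties same-numbered samples, whose deviations from the group means correlated at 0.0407 over H4K20me1 genes and -0.0428 over Pol II S2P genes. With the replicate number as a block (replicate block), 12718 H4K20me1 genes and 0 Pol II S2P genes and 0 peaks were called, and no other call given here changed. With 2 libraries a group, exact tests could not go below 0.333, and an unknown depth limits the low Pol II S2P scores of Rasa1 and Braf.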
